A study of Rattus norvegicus with 39 samples.

Results

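The cerebral cortex of 28-month-old male BN rats that had eaten a lipoic acid diet and were then moved to caloric restriction was compared with that of rats fed ad libitum throughout. Members were the RNA-seq libraries labelled with these diets at 28 months, 3 of ad libitum feeding (AL, pools 7, 8 and 9) and 3 of lipoic acid followed by restriction (AL+LA>CR, pools 22, 23 and 24), which is 6 of the 39 libraries of the series. All rats ate the same unsupplemented chow without limit until 2 months of age. AL rats stayed on it to 28 months. AL+LA>CR rats then ate the chow with racemic α-lipoic acid at 1.5 g/kg without limit until 12 months, when they were switched to caloric restriction (CR) at 55% of the intake of control rats. Each library was made from the cortical RNA of 2 rats mixed together, so n = 3 pools from 6 rats per group, and the spread between pools is smaller than that between rats would be. The comparison asks what the cortex of old rats with this diet history expresses differently from that of old AL rats. Because the groups differ both in the early supplement and in the later restriction, the effect of lipoic acid and the effect of restriction cannot be told apart in it, and 3 further groups of 28 months with 3 pools each are set beside it below: AL>CR (the same switch without lipoic acid), CR (restriction from 2 months) and AL+LA (lipoic acid with unlimited food to 28 months).

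α-Lipoic acid is a sulphur-containing fatty acid that mitochondria attach to the enzyme complexes that feed carbon into respiration, where it works as a swinging arm between active sites. Given as a supplement it can be reduced to a dithiol that reacts with oxidants and binds metals. Caloric restriction lowers circulating insulin and growth factors, raises glucocorticoid, and extends the life of many rodent strains. In cortex, neurons draw most of their ATP from the respiratory chain, while astrocytes supply glutathione, the main small thiol of the brain, clear glutamate and build scar proteins such as Gfap with age.

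The test covered 17230 of the 26123 genes listed, and 833 genes had an adjusted p under 0.05 with edgeR's quasi-likelihood test (4.83% of the genes tested). Of these, 519 were higher in AL+LA>CR (3.01% of the genes tested) and 314 were lower (1.82%). The median log2 fold change was 0.96 among the higher genes and -0.86 among the lower genes, against -0.01 over all genes tested. A change of more than 1 on the log2 scale was seen for 238 of the higher and 122 of the lower genes. The pools of the groups did not overlap for 757 of the 833 genes, and for 22.5% of all genes tested. A symbol was known for 1669 of the tested genes, which are genes that the study called in one of its comparisons. They were therefore called more often than the rest, 23.5% higher and 15.2% lower, against 1.21% in either direction among the 15561 genes without a symbol. Counts of list members below should be read against these shares of the genes with a symbol, not against 4.83%. Members of a list without a symbol enter none of its counts, so each list covers only members the study called somewhere. Medians and signs of lists are partly set by that choice too, and their values over all genes with a symbol are not given.

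**Figure D1:**
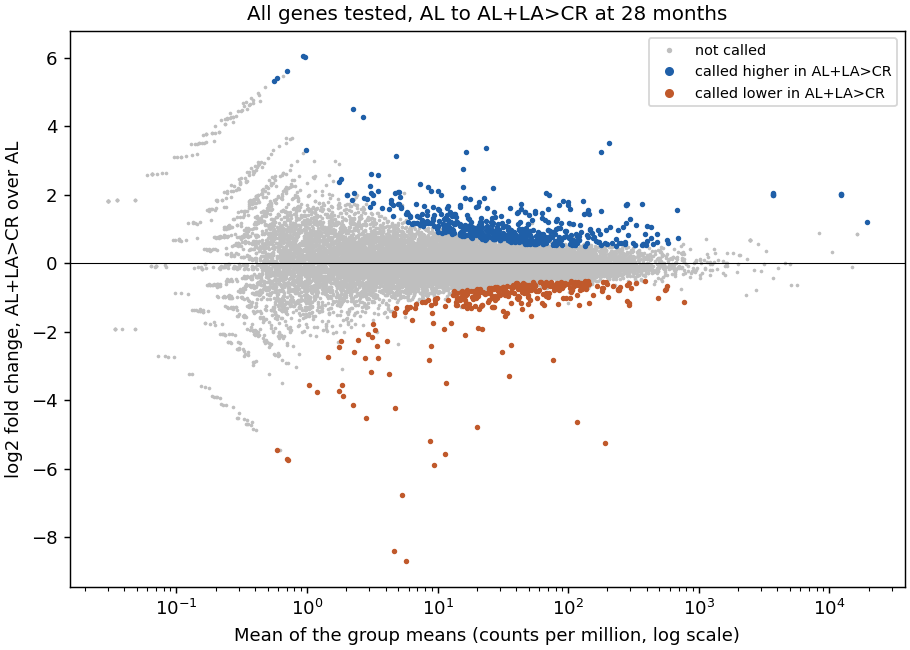
Each point is 1 of the 17230 genes tested, with the mean of the AL and AL+LA>CR levels in CPM (log axis) against the log2 fold change of AL+LA>CR over AL. The 519 called higher are blue, the 314 called lower are orange, and grey genes were not called.

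The AL libraries stood apart from the rest of the series in 2 measures that bear on every value here. In cerebellar marker genes, AL pools 7 and 9 had a mean log2(CPM + 1) of 7.01 and 6.98 (CPM, the count of a gene scaled to a common library size), whereas AL pool 8 had 3.02 and the AL+LA>CR pools had 2.97, 2.87 and 4.18. Over all ages, 5 of 9 libraries of AL throughout were above 5 on this scale and 0 of the 30 other libraries were. The share of reads not aligned was 27.5% to 33.2% in AL and 34.1% to 40.4% in AL+LA>CR, a difference of 6.10 percentage points (exact permutation test, two-sided p = 0.1, the smallest that 3 pools against 3 allow). It was 27.5% to 36.1% in the 9 AL libraries of all ages and 34.1% to 43.2% in the 30 others. The share of aligned reads on no gene was 81.2% ± 1.12 (SD, n = 3) in AL and 81.8% ± 1.18 in AL+LA>CR (exact permutation test, p = 0.5). Reads on genes ranged from 3109488 to 4537079 in AL and from 3804105 to 4984254 in AL+LA>CR. The residual ribosomal RNA gene Rn28s stood at 5596, 6075 and 2928 CPM in the AL pools and 3919.8, 17594 and 37217 CPM in the AL+LA>CR pools. It was itself called higher (log2 fold change 2.01 ± 0.45 SE, adjusted p = 0.00993 by edgeR), with overlapping groups. Leaving this 1 gene out changed the count of called genes from 833 to 834. That does not test whether uneven removal of ribosomal RNA bears on other genes. Because AL rats ate differently and their libraries also differ in these measures, diet and any difference in dissection or library preparation cannot be told apart, and the part of either in the results was not tested.

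**Figure D2:**
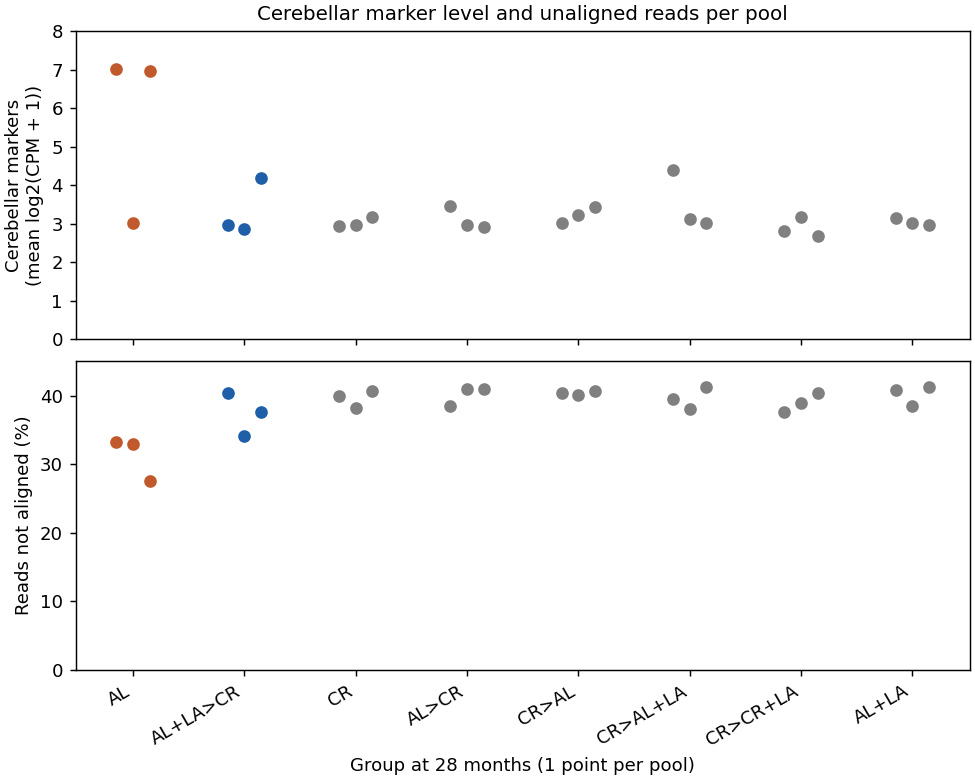
Upper panel, the mean log2(CPM + 1) of 8 cerebellar marker genes in each of the 24 pools of 28 months; lower panel, the percentage of reads not aligned. AL pools 7 and 9 are at 7.01 and 6.98 in the upper panel, and every other pool is under 5.

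All 8 cerebellar markers with a symbol were called lower in AL+LA>CR, and in each of them the AL level came from pools 7 and 9. Gabra6, the GABA-A receptor subunit of cerebellar granule cells, had 2901, 1 and 2293 reads in the AL pools and 3, 3 and 112 in the AL+LA>CR pools. Cbln1, a synapse organiser released by granule cells, stood at 95.3, 8.12 and 88.2 CPM in the AL pools and 6.81, 2.34 and 11.3 CPM in the AL+LA>CR pools. Car8, a carbonic anhydrase relative of Purkinje cells, stood at 218, 17.4 and 164 CPM in the AL pools and 18.6, 17.2 and 21.5 CPM in the AL+LA>CR pools. AL pool 8 was therefore close to the AL+LA>CR pools in these markers. Their median log2 fold change was -2.71 with 3 AL pools. It was -0.13 with the marker level as a covariate in a fit of all 13 groups, and 0.14 with pool 8 as the only AL pool. The covariate was the mean log2(CPM + 1) of these same 8 markers, and pools 7 and 9 were left out for their high level of them. Values near 0 were therefore largely set in advance, and neither check tests these 8 genes. With the covariate 0 of the 8 were called by edgeR, with 2 at an unadjusted p under 0.05. Summed over the markers, the AL pools had 1484, 84.4 and 1445 CPM, the AL+LA>CR pools 82.4, 77.9 and 153 CPM, and the 30 libraries of diets other than AL throughout, of all ages and with the AL+LA>CR pools among them, between 64.7 and 174 CPM.

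For this reason 2 checks were run, and the counts of list members called in them are given where they differ from the main count. A called gene named below was also called with the covariate unless its loss is stated. With the marker covariate 699 genes were called (2.73% of the genes tested higher and 1.32% lower), of which 479 were among the 833, 365 of the 519 higher genes and 114 of the 314 lower ones. With AL pool 8 alone against the AL+LA>CR pools, in a fit where the other groups supply the spread, 209 genes were called (0.749% higher and 0.464% lower), 153 of them among the 833. A group of 1 pool gives a test less power, and of 120 genes chosen to be named 65 were called with the covariate and 31 with pool 8 alone. The median log2 fold change of the 519 higher genes was 0.96 with the covariate and 0.93 with pool 8 alone, and that of the 314 lower genes was -0.65 and -0.66. Pool 8 is 1 of the pools by which these genes were called, so the direction against it is largely set by that choice and is given as a description. In 59.9% of the lower genes pool 8 was the lowest of the AL pools, against 35.3% of all genes tested.

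**Figure D3:**
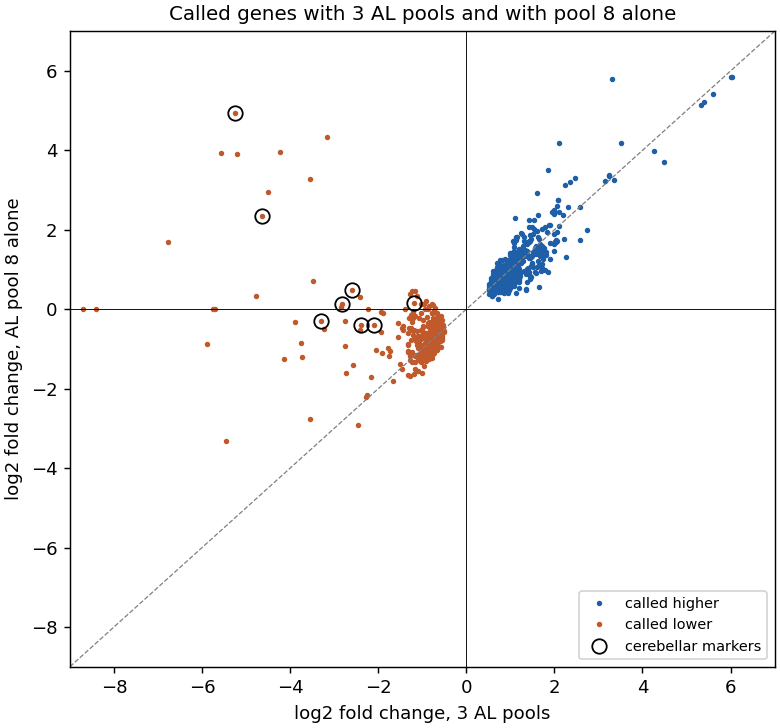
For the 833 called genes, the log2 fold change of AL+LA>CR over all 3 AL pools (horizontal) against that over AL pool 8 alone (vertical), with the dashed line marking equality and circles marking the 8 cerebellar markers. All 519 higher genes lie above 0 on both axes, which their choice by the 3 AL pools largely sets, while 27 of the 314 lower genes do not stay below 0.

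The 10 genes with a symbol and the smallest adjusted p among those higher in AL+LA>CR were Rpl8, Rpl35, Ndufa3, Gfap, Ywhah, Dbndd2, Cml3, Alb, Tmsb10 and Pcp4. Gfap (ENSRNOG00000002919), the intermediate filament of astrocytes that builds up in reactive astrocytes, was expressed at 140.4, 203 and 171 CPM in the AL pools and 637, 491 and 565 CPM in the AL+LA>CR pools (log2 fold change 1.72 ± 0.17 SE, adjusted p = 1.84e-06). Every AL+LA>CR pool was more than 2 times the AL pool with the most Gfap, and the levels in 3 other diets of 28 months were 508 ± 34.9 CPM in AL>CR, 523 ± 157 CPM in CR and 729 ± 119 CPM in AL+LA. In younger AL rats Gfap stood at 384 ± 37.8 CPM at 6 months and 633 ± 62.9 CPM at 12 months. The AL pools of 28 months thus had less Gfap than any younger AL pool, and the AL+LA>CR level lay between the younger means. Ywhah (ENSRNOG00000026119), the 14-3-3 eta adaptor that binds phosphorylated proteins in neurons, was expressed at 336, 349.8 and 360.0 CPM in the AL pools and 1039.8, 1156 and 877 CPM in the AL+LA>CR pools (log2 fold change 1.56 ± 0.16 SE, adjusted p = 3.88e-06). Tmsb10 (ENSRNOG00000042499), a peptide that sequesters actin monomers, rose from 17.8, 24.4 and 22.9 CPM to 64.9, 57.3 and 71.6 CPM (log2 fold change 1.58 ± 0.18 SE, adjusted p = 1.95e-05). The AL and AL+LA>CR pools of these genes were far apart, with little spread within either group, which their choice by the smallest adjusted p largely sets. Pcp4 (ENSRNOG00000001628), a small regulator of calmodulin, rose from 29.8, 46.98 and 45.4 CPM to 168, 108 and 115 CPM (log2 fold change 1.69 ± 0.20 SE, adjusted p = 2.54e-05). Dbndd2 (ENSRNOG00000014571), a dysbindin-domain protein of oligodendrocytes, rose from 31.2, 35.96 and 37.7 CPM to 121, 96.8 and 95.1 CPM (log2 fold change 1.58 ± 0.16 SE, adjusted p = 5.79e-06). Cml3 (ENSRNOG00000015763), an N-acetyltransferase relative, rose from 30.2, 32.8 and 25.2 CPM to 81.4, 85.1 and 77.4 CPM (log2 fold change 1.47 ± 0.16 SE, adjusted p = 1.57e-05). The rule that chose these genes, and the lower genes below, asked for groups that do not overlap. Each of these higher genes stayed called when any 1 of the 6 pools was left out.

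Of the 10 lower genes with the smallest adjusted p outside the cerebellar list, 8 are described here, Calb2, Bccip, Camk4, Dvl1, Pygm, Nwd1, Ank1 and Trpm3. For 4 of them AL pool 8 was not far below pools 7 and 9. Dvl1 (ENSRNOG00000019423), which relays Wnt signals from Frizzled receptors, stood at 50.6, 56.8 and 59.3 CPM in the AL pools and 27.8, 28.7 and 24.4 CPM in the AL+LA>CR pools (log2 fold change -1.04 ± 0.17 SE, adjusted p = 0.000737). Pygm (ENSRNOG00000021090), the glycogen phosphorylase that astrocytes use to release glucose units from glycogen, stood at 73.7, 70.2 and 87.5 CPM in the AL pools and 44.3, 36.3 and 32.5 CPM in the AL+LA>CR pools (log2 fold change -1.03 ± 0.17 SE, adjusted p = 0.000786). Bccip (ENSRNOG00000018066), a nuclear protein that binds Brca2 and the CDK inhibitor p21, fell from 42.4, 36.3 and 36.6 CPM to 16.7, 14.9 and 16.2 CPM (log2 fold change -1.27 ± 0.19 SE, adjusted p = 0.000281). Pool 8 lay within or near the range of pools 7 and 9 for each of these, and the log2 fold change with pool 8 alone was -1.07 for Dvl1, -0.89 for Pygm and -1.19 for Bccip. Bccip was not called with pool 8 alone (adjusted p = 0.0923, edgeR). Nwd1 (ENSRNOG00000050639), a NACHT-domain protein, fell from 55.7, 75.1 and 49.8 CPM to 29.6, 28.9 and 20.9 CPM (log2 fold change -1.17 ± 0.19 SE, adjusted p = 0.000806), and had its highest AL level in pool 8.

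For the other 4 the AL level was highest in pools 7 and 9. Calb2, the calcium buffer calretinin, which granule cells of the cerebellum and a class of cortical interneurons express, stood at 43.3, 19.7 and 41.4 CPM in the AL pools and 9.86, 6.58 and 11.6 CPM in the AL+LA>CR pools (log2 fold change -1.92 ± 0.27 SE, adjusted p = 0.000191). With the covariate its log2 fold change was -0.71 (adjusted p = 0.578, edgeR). Ank1, an ankyrin that ties membrane proteins to spectrin, stood at 49.4, 27.3 and 68.99 CPM in the AL pools and 18.6, 12.1 and 19.4 CPM in the AL+LA>CR pools (log2 fold change -1.55 ± 0.26 SE, adjusted p = 0.00101) and had a log2 fold change of -0.55 with the covariate (adjusted p = 0.324, edgeR). Camk4, a nuclear calcium/calmodulin kinase, and Trpm3, a cation channel, also lost the call with the covariate, with adjusted p of 0.0691 and 0.104 by edgeR.

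**Figure D4:**
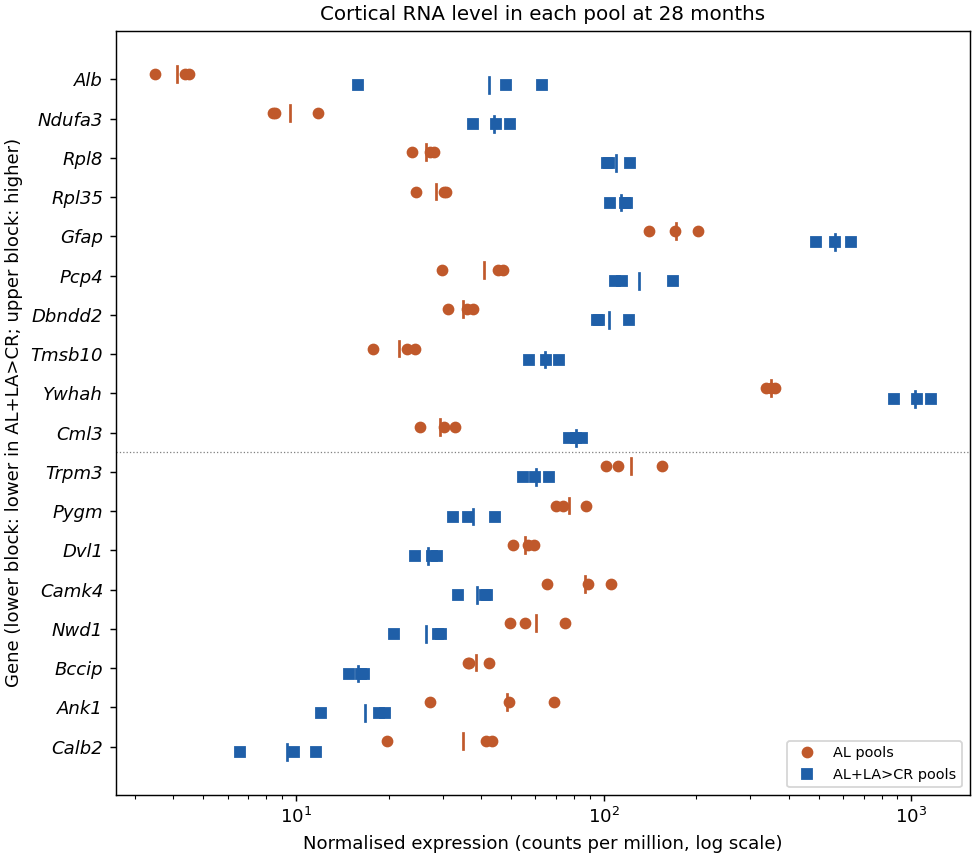
CPM (log axis) of the 10 higher genes with the smallest adjusted p and of the 8 lower genes described, in each AL pool (orange circles) and AL+LA>CR pool (blue squares), with a bar at each group mean. No gene has overlapping groups, because the genes were chosen that way. In the lower block Calb2 and Ank1 show 1 AL pool near the AL+LA>CR pools.

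Subunits of the mitochondrial respiratory chain that had a symbol were mostly higher in AL+LA>CR. The chain passes electrons from NADH through complexes I, III and IV to oxygen, and ATP synthase uses the proton gradient this builds. Of 20 complex I identifiers with a symbol, 14 were called higher and 0 lower, with a median log2 fold change of 0.81, against 23.5% higher among all genes with a symbol. All 20 were above 0, for which the share over all genes with a symbol is not given. Ndufa3 (ENSRNOG00000014224), an accessory subunit of complex I, showed the largest rise of the list, at 8.57, 8.41 and 11.8 CPM in the AL pools and 37.6, 49.7 and 44.7 CPM in the AL+LA>CR pools (log2 fold change 2.19 ± 0.21 SE, adjusted p = 1.84e-06). Its lowest AL+LA>CR pool was over 3 times its highest AL pool. Ndufab1, the mitochondrial acyl carrier protein that also starts lipoic acid synthesis, rose from 26.1, 23.5 and 27.5 CPM to 53.04, 67.7 and 49.6 CPM (log2 fold change 1.14 ± 0.18 SE, adjusted p = 0.000459). Ndufb7 rose from 9.59, 12.2 and 14.8 CPM to 33.1, 24.8 and 34.2 CPM (log2 fold change 1.33 ± 0.22 SE, adjusted p = 0.000797) and Ndufa1 rose from 25.7, 24.7 and 23.4 CPM to 46.2, 47.8 and 51.9 CPM (log2 fold change 0.98 ± 0.17 SE, adjusted p = 0.00139). With the covariate 14 of the 20 were called higher, with a median log2 fold change of 0.83, and with pool 8 alone 4 were, with a median of 0.72.

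In complex III, 5 of 6 identifiers were called higher and 0 lower, with a median log2 fold change of 0.89. Uqcrb, the ubiquinone-binding subunit, is listed under 2 identifiers whose reads cannot be assigned with certainty between near-identical copies, and these rose from 30.6, 29.3 and 22.2 CPM to 70.4, 71.1 and 77.4 CPM (ENSRNOG00000032204, adjusted p = 3.36e-05 by edgeR) and from 44.9, 25.5 and 38.2 CPM to 88.5, 82.6 and 100.3 CPM (ENSRNOG00000024967, adjusted p = 0.000191 by edgeR). Uqcr11 had a log2 fold change of 0.93 ± 0.15 SE, adjusted p = 0.000737 and Uqcrq of 0.66 ± 0.16 SE, adjusted p = 0.0197. In complex IV, cytochrome c oxidase, 7 of 10 identifiers were called higher and 1 lower, with a median of 0.69. Cox6a1 rose from 137, 127 and 125 CPM to 259.8, 241 and 270.0 CPM (log2 fold change 0.98 ± 0.14 SE, adjusted p = 0.00031) and Cox5b rose from 96.7, 96.6 and 118 CPM to 182, 159.7 and 192 CPM (log2 fold change 0.78 ± 0.15 SE, adjusted p = 0.00410). Cox8a and Cox7c had log2 fold changes of 0.84 (adjusted p = 0.00664, edgeR) and 0.86 (adjusted p = 0.00706, edgeR). The exception was Cox7a2l2, listed as a relative of the supercomplex factor Cox7a2l, which fell from 904, 790.3 and 1497 CPM to 617, 418 and 432 CPM (log2 fold change -1.12 ± 0.21 SE, adjusted p = 0.00280). In complex III 4 identifiers were called higher with the covariate and 2 with pool 8 alone. In complex IV these counts were 6 higher and 1 lower with the covariate, and 1 higher and 0 lower with pool 8 alone. Cox7c and Uqcrq were each called in 3 of the 6 fits with 1 pool left out.

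Of 7 ATP synthase identifiers 4 were called higher and 1 lower, with a median log2 fold change of 0.61. Atp5i rose from 22.6, 14.5 and 27.5 CPM to 49.99, 56.9 and 77.4 CPM (log2 fold change 1.49 ± 0.21 SE, adjusted p = 0.000242), and Atp5o, Atp5j2 and the inhibitor Atpif1 rose by 0.63, 0.56 and 0.61 on the log2 scale. These 3 rises were as dependent on single pools, with Atp5o called in 2 and Atp5j2 and Atpif1 in 1 of the 6 fits with 1 pool left out. Atp5c1, the gamma subunit of the rotor, fell from 101, 74.2 and 89.4 CPM to 41.4, 53.9 and 72.2 CPM (log2 fold change -0.67 ± 0.19 SE, adjusted p = 0.0383), a call that 4 of the 6 fits with 1 pool left out did not make and that was lost with the covariate (adjusted p = 0.156, edgeR). Of 3 genes encoded in the mitochondrial genome 1 was called, ND3, which rose from 407, 369 and 538 CPM to 575, 922 and 627 CPM (log2 fold change 0.69 ± 0.18 SE, adjusted p = 0.0316), in 2 of the 6 fits with 1 pool left out. The one complex II identifier with a symbol, Sdhb, was not called, with log2 fold change 0.45 ± 0.17 SE, adjusted p = 0.152, but was called higher in both checks. Of the ATP synthase list 4 identifiers were called higher with the covariate and 2 with pool 8 alone.

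The proteins of the cytosolic ribosome formed the largest group. Of 64 identifiers 33 were called higher and 2 lower, with a median log2 fold change of 0.65, and 56 of the 64 were above 0. Rpl8 (ENSRNOG00000032635) was expressed at 27.3, 28.1 and 23.8 CPM in the AL pools and 102, 104 and 122 CPM in the AL+LA>CR pools (log2 fold change 2.05 ± 0.16 SE, adjusted p = 2.56e-07). Rpl35 (ENSRNOG00000014272) stood at 24.5, 30.7 and 30.3 CPM in the AL pools and 105, 117 and 119 CPM in the AL+LA>CR pools (log2 fold change 2.00 ± 0.16 SE, adjusted p = 2.56e-07). Both were thus about 4 times as abundant in AL+LA>CR as in AL. Rps21 rose from 26.1, 16.5 and 17.6 CPM to 48.9, 74.5 and 78.6 CPM (log2 fold change 1.73 ± 0.21 SE, adjusted p = 3.79e-05), and the Rps29 identifier ENSRNOG00000004196 rose from 109.8, 66.1 and 99.5 CPM to 228, 228 and 346 CPM (log2 fold change 1.54 ± 0.19 SE, adjusted p = 6e-05). Of the 2 lower identifiers Rpl9 went from 111, 85.6 and 79.6 CPM to 59.7, 46.1 and 69.02 CPM, with a log2 fold change of -0.67 (adjusted p = 0.0298, edgeR). Ribosomal protein genes have many processed copies in the genome, and reads that mapped to several places were dropped by the authors, so single members of this list are uncertain. With the covariate 42 were called higher and 2 lower, and with pool 8 alone 17 higher and 0 lower.

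Genes of thiol and metal defence that had a symbol also lay mostly higher. Of 12 glutathione and thioredoxin identifiers 8 were called higher and 0 lower, with a median log2 fold change of 0.72. Gstp1 (ENSRNOG00000018237), the glutathione S-transferase of glia, was expressed at 22.2, 30.5 and 20.6 CPM in the AL pools and 73.3, 66.7 and 66.1 CPM in the AL+LA>CR pools (log2 fold change 1.50 ± 0.18 SE, adjusted p = 2.72e-05). Gstm1, of the mu class, stood at 49.6, 55.98 and 58.6 CPM in the AL pools and 113, 107 and 114 CPM in the AL+LA>CR pools (log2 fold change 1.03 ± 0.15 SE, adjusted p = 0.000322). Gsta1, of the alpha class, rose from 58.8, 53.4 and 47.9 CPM to 81.2, 111 and 109 CPM (log2 fold change 0.91 ± 0.17 SE, adjusted p = 0.00225). In all 3 transferases the lowest AL+LA>CR pool was above the highest AL pool. Gstt3, of the theta class, rose from 29.2, 32.2 and 34.5 CPM to 54.7, 50.7 and 52.8 CPM (log2 fold change 0.72 ± 0.16 SE, adjusted p = 0.0112). Txndc17, a small thioredoxin-like protein, rose from 10.6, 11.02 and 6.71 CPM to 18.6, 21.02 and 21.2 CPM (log2 fold change 1.10 ± 0.24 SE, adjusted p = 0.00744). Txnrd1, which keeps thioredoxin reduced, rose from 27.5, 31.9 and 28.01 CPM to 43.01, 49.9 and 51.04 CPM (log2 fold change 0.72 ± 0.17 SE, adjusted p = 0.0152), and Txnip, which binds and blocks thioredoxin, rose from 36.1, 39.4 and 41.7 CPM to 67.2, 55.2 and 51.04 CPM (log2 fold change 0.57 ± 0.17 SE, adjusted p = 0.0493). The enzyme and its blocker thus both lay higher. Txnip was close to the threshold and was called in 0 of the 6 fits with 1 pool left out, and Txnrd1 in 2 of them. With the covariate 5 of the 12 were called, among them Gstp1 (log2 fold change 1.32), Gstm1 (0.97) and Gsta1 (0.83), and Gstt3, Txndc17 and Txnip were not (adjusted p of 0.0988, 0.0627 and 0.254 by edgeR). With pool 8 alone 2 of the 12 were called.

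Of 8 other antioxidant and metal-binding identifiers 3 were called higher and 0 lower. Ftl, the ferritin light chain that stores iron, stood at 2.65, 6.67 and 3.01 CPM in the AL pools and 15.2, 19.96 and 46.4 CPM in the AL+LA>CR pools (log2 fold change 2.74 ± 0.39 SE, adjusted p = 0.000191). MT1 (ENSRNOG00000038047), metallothionein 1, which buffers zinc and copper with its cysteines and is made by glia on zinc, oxidant or glucocorticoid signals, stood at 3.06, 2.03 and 2.08 CPM in the AL pools and 10.03, 10.8 and 16.2 CPM in the AL+LA>CR pools (log2 fold change 2.32 ± 0.34 SE, adjusted p = 0.000327). Mt2A (ENSRNOG00000043098), its neighbour in the genome, stood at 15.9, 13.1 and 16.4 CPM in the AL pools and 24.4, 30.8 and 42.6 CPM in the AL+LA>CR pools (log2 fold change 1.08 ± 0.22 SE, adjusted p = 0.00497). Both metallothioneins were higher in each AL+LA>CR pool than in any AL pool. In the AL pools Ftl had only 13, 23 and 13 reads and MT1 only 15, 7 and 9. Reads that mapped to several places were dropped by the authors for these genes too, so their levels are uncertain. With the covariate the log2 fold change was 2.31 for MT1 (adjusted p = 0.00742, edgeR) and 1.24 for Mt2A, which lost its call (adjusted p = 0.0555, edgeR). Of the 8 identifiers 3 were called with the covariate and 1 with pool 8 alone. Mt3, the brain form found in neurons, was chosen after its values were seen as the contrast to them. It stood at 75.9, 80.9 and 105 CPM in the AL pools and 134, 71.98 and 111 CPM in the AL+LA>CR pools, the groups overlapped, and the log2 fold change was 0.28 ± 0.19 SE, adjusted p = 0.479.

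Since MT1 and Mt2A were called and Mt3 was not, the 250 bases before the RefSeq start of each are shown (assembly GRCr8, which is not the build of the counts), with matches to the metal response element capitalised. The element was searched as TGCACNC or TGCGCNC on both strands, and 20.6% of 33469 windows of 250 bases hold at least 1 match and 1.17% hold 3 or more. The windows lie at chr19:10832976-10833225, minus strand, at chr19:10838709-10838958, minus strand and at chr19:10856081-10856330, minus strand, written 5′ to 3′ along the gene's strand.
Mt1: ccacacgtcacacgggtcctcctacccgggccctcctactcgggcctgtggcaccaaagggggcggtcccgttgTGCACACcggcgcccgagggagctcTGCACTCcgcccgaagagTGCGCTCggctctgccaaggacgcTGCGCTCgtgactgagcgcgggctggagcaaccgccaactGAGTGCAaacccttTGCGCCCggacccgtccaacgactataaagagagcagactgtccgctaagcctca
Mt2A: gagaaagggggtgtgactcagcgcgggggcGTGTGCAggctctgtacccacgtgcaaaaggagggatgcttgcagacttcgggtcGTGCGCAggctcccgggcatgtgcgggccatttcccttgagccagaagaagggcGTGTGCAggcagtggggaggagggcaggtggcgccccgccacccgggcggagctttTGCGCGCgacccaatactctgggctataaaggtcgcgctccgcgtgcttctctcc
Mt3: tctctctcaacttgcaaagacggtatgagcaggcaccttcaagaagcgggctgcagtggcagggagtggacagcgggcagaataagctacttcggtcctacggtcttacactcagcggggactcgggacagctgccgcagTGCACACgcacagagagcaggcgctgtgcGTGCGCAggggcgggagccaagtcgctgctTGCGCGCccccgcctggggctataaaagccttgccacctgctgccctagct
Mt1 holds 6 matches, Mt2A 4 and Mt3 3, so the window of the gene that was not called carries matches as well. Over the metal-binding and antioxidant list 5 of 7 members with a window hold a match.

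For Gstp1 the same 250 bases are shown with the antioxidant response element in capitals, searched as TGACNNNGC on both strands and present in 10.1% of all windows (chr1:210769706-210769955, minus strand).
Gstp1: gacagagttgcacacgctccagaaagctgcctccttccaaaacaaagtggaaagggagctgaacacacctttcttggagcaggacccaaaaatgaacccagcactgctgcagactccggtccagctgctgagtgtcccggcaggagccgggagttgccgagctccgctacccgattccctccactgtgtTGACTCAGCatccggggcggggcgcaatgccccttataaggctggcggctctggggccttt
The 1 match begins 61 bases before the start. Of 12 glutathione and thioredoxin members with a window 2 hold this motif. The sterol response element, searched as TCACNCC on both strands, was found in 1 of 6 windows of the sterol list, against 12.2% of all windows, the E-box CACGTG in 3 of 7 of the clock list, against 5.59%, and the glucocorticoid response motif TGTTCT in 1 of 3 of the glucocorticoid list, against 17.5%. A match in such a window is a run of letters and not evidence of binding.

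Of 7 sterol synthesis identifiers 4 were called higher and 0 lower, with a median log2 fold change of 0.55, and the changes were small. Fdps, which makes farnesyl pyrophosphate, stood at 67.5, 73.96 and 62.04 CPM in the AL pools and 119, 101 and 104 CPM in the AL+LA>CR pools (log2 fold change 0.67 ± 0.15 SE, adjusted p = 0.0112). Fdft1, squalene synthase, rose from 61.8, 68.2 and 59.3 CPM to 96.2, 95.8 and 88.7 CPM, Hmgcs1, which starts the cytosolic pathway, rose from 351, 296 and 251 CPM to 411, 459 and 460.2 CPM, and Insig1, which holds back sterol-sensing transcription, rose from 102, 86.1 and 82.2 CPM to 133, 149 and 115 CPM. Their log2 fold changes were 0.57, 0.57 and 0.55, with adjusted p of 0.0286, 0.0344 and 0.0423 by edgeR. Each of these 3 was called in at most 3 of the 6 fits with 1 pool left out, and with the covariate only Hmgcs1 of the list was called, and with pool 8 alone 0 of the 7 were by edgeR, with 5 at an unadjusted p under 0.05.

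Glutamate receptors and calcium/calmodulin kinases carry and read out excitation, and their identifiers with a symbol were called lower more often than higher. Symbols covered 7 identifiers of a list of 26 receptors and 4 of a kinase list of 14. Of 7 glutamate receptor identifiers 4 were called lower and 0 higher, with a median log2 fold change of -0.69. Grin2c, an NMDA receptor subunit that cerebellar granule cells and astrocytes express strongly, stood at 39.4, 36.8 and 53.7 CPM in the AL pools and 24.01, 14.9 and 29.9 CPM in the AL+LA>CR pools (log2 fold change -0.93 ± 0.22 SE, adjusted p = 0.0156). Gria4, an AMPA receptor subunit, stood at 362, 186 and 380.3 CPM in the AL pools and 187, 190.0 and 194 CPM in the AL+LA>CR pools (log2 fold change -0.70 ± 0.20 SE, adjusted p = 0.0391). Gria4 overlapped between the groups, with AL pool 8 below each AL+LA>CR pool. With pool 8 alone the log2 fold changes were -0.70 for Grin2c and 0.03 for Gria4. Grik2, a kainate receptor subunit, was not called and stood at 207, 134 and 205 CPM in the AL pools and 122, 131 and 115 CPM in the AL+LA>CR pools (log2 fold change -0.57 ± 0.17 SE, adjusted p = 0.0516). With the covariate the list had 1 call, lower, and a median of -0.17. Grin2c and Gria4 lost the call (adjusted p of 0.0621 and 0.857 by edgeR). With pool 8 alone 0 of the 7 were called by edgeR, with 2 at an unadjusted p under 0.05.

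Of 4 kinase identifiers 2 were lower and 1 higher. Camk4 is given above, and Camk2d, a delta subunit of CaM kinase II, fell from 261, 168 and 241 CPM to 117, 132 and 161 CPM (log2 fold change -0.72 ± 0.17 SE, adjusted p = 0.0179). Camk2n1, an inhibitor of CaM kinase II, rose from 139.6, 131 and 108 CPM to 210.2, 198 and 191 CPM (log2 fold change 0.66 ± 0.15 SE, adjusted p = 0.0114). None of the 4 was called with the covariate by edgeR (3 had an unadjusted p under 0.05) or with pool 8 alone (2 had). Gad1, which makes GABA, was not called, at 277, 242 and 283 CPM in the AL pools and 177, 223 and 184 CPM in the AL+LA>CR pools (log2 fold change -0.46 ± 0.15 SE, adjusted p = 0.0863).

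In the vesicle release machinery 5 of 14 identifiers were called higher and 2 lower, with a median log2 fold change of 0.35. Among all genes with a symbol 23.5% were called higher and 15.2% lower, so the count of lower members was near that share. Syt1, the calcium sensor of synaptic vesicles, rose from 145, 209.7 and 153 CPM to 346, 384 and 334 CPM (log2 fold change 1.07 ± 0.16 SE, adjusted p = 0.000376). Sncb, beta-synuclein, rose from 55.5, 58.01 and 48.4 CPM to 132, 120.0 and 113 CPM (log2 fold change 1.18 ± 0.15 SE, adjusted p = 9.54e-05). Stx1a, a SNARE of the presynaptic membrane, rose from 12.9, 22.3 and 12.04 CPM to 38.5, 37.8 and 30.7 CPM (log2 fold change 1.21 ± 0.22 SE, adjusted p = 0.00257), and Rab3b, a vesicle GTPase, rose by 0.92 on the log2 scale. The 2 lower genes were the priming factor Unc13c, at 109.8, 48.7 and 116 CPM in the AL pools and 34.8, 31.2 and 53.1 CPM in the AL+LA>CR pools (log2 fold change -1.22 ± 0.25 SE, adjusted p = 0.00477), and the active zone scaffold Bsn, at 346, 511 and 337 CPM in the AL pools and 268, 245 and 285 CPM in the AL+LA>CR pools (log2 fold change -0.58 ± 0.17 SE, adjusted p = 0.0447). Unc13c followed the cerebellar markers, with -0.31 on the log2 scale for pool 8 alone, whereas Bsn was highest in pool 8 and gave -0.94. With the covariate 4 of the 14 were called higher and 1 lower, and with pool 8 alone 2 and 1. Stx1a and Unc13c lost the call with the covariate (adjusted p of 0.0836 and 0.71 by edgeR).

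Of 5 MHC class II identifiers, which present peptides on microglia and perivascular macrophages, 4 were called higher and 0 lower, with a median log2 fold change of 1.35. RT1-Ba stood at 15.1, 28.4 and 21.99 CPM in the AL pools and 68.8, 67.9 and 42.1 CPM in the AL+LA>CR pools (log2 fold change 1.47 ± 0.22 SE, adjusted p = 0.000376). RT1-Da rose from 13.5, 21.2 and 12.3 CPM to 48.7, 44.6 and 23.5 CPM (log2 fold change 1.35 ± 0.25 SE, adjusted p = 0.00280), RT1-Db1 rose by 1.15 and RT1-Bb by 1.35 on the log2 scale. In each of these AL pool 8 was the highest AL pool and pool 24 the lowest AL+LA>CR pool, and RT1-Bb overlapped between the groups. Cd74, the invariant chain that chaperones class II molecules, was not called and stood at 20.6, 46.7 and 25.7 CPM in the AL pools and 51.8, 54.4 and 38.9 CPM in the AL+LA>CR pools. With the covariate 1 of the 5, RT1-Ba, was called, and with pool 8 alone 0 by edgeR, with 0 at an unadjusted p under 0.05. Of 8 interferon-responsive identifiers 2 were called higher, a share close to the 23.5% of all genes with a symbol, Ifi27 from 13.7, 17.98 and 10.6 CPM to 29.7, 29.3 and 27.6 CPM and Rnf213 from 36.3, 37.99 and 33.3 CPM to 52.7, 66.9 and 46.4 CPM, with log2 fold changes of 1.05 and 0.63. Rnf213 lost the call with the covariate (adjusted p = 0.121, edgeR), where 2 of the 8 were again called, and with pool 8 alone 0 of the 8 were called by edgeR, with 2 at an unadjusted p under 0.05. None of 5 microglial markers was called by edgeR's quasi-likelihood test (4 had an unadjusted p under 0.05, and DESeq2 called 0 and the exact test 1), the nearest being Tyrobp with a log2 fold change of 0.81 ± 0.25 SE, adjusted p = 0.0666.

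Genes that respond within minutes to activity or stress were higher where called, 4 of 11 identifiers, with 0 lower and a median log2 fold change of 0.69. Arc, an activity-regulated capsid-like protein of synapses, stood at 143, 122 and 78.9 CPM in the AL pools and 308, 199 and 159 CPM in the AL+LA>CR pools (log2 fold change 0.96 ± 0.22 SE, adjusted p = 0.0112). Sik1 rose from 6.94, 4.06 and 4.86 CPM to 16.3, 12.3 and 11.02 CPM (log2 fold change 1.31 ± 0.29 SE, adjusted p = 0.00980), and Jun rose from 14.1, 7.25 and 11.8 CPM to 33.9, 21.9 and 16.5 CPM (log2 fold change 1.12 ± 0.27 SE, adjusted p = 0.0159). In all 3 the AL+LA>CR pool with the most was pool 22. Btg2, an antiproliferative gene, was the extreme case, at 13.3, 8.41 and 7.41 CPM in the AL pools and 82.6, 12.95 and 11.3 CPM in the AL+LA>CR pools (log2 fold change 1.90 ± 0.50 SE, adjusted p = 0.0282), where pool 22 set the mean and the groups overlapped. With the covariate 1 of the 11 was called, Sik1, while Arc, Jun and Btg2 had adjusted p of 0.297, 0.122 and 0.685 by edgeR. With pool 8 alone 0 of the 11 were called by edgeR, with 4 at an unadjusted p under 0.05. Nr4a1, an orphan nuclear receptor, was not called, at 21.2, 23.2 and 12.96 CPM in the AL pools and 46.6, 23.99 and 18.6 CPM in the AL+LA>CR pools. Of 7 clock identifiers 2 were called higher, a share close to the 23.5% of all genes with a symbol. Bhlhe40, a repressor of clock genes, stood at 52.2, 60.6 and 49.3 CPM in the AL pools and 101, 129.5 and 89.9 CPM in the AL+LA>CR pools (log2 fold change 0.99 ± 0.17 SE, adjusted p = 0.00121), and Dbp, a clock output factor, at 35.5, 35.4 and 30.1 CPM in the AL pools and 72.8, 55.4 and 59.7 CPM in the AL+LA>CR pools (log2 fold change 0.90 ± 0.17 SE, adjusted p = 0.00303). Dbp lost the call with the covariate (adjusted p = 0.0889, edgeR), and with pool 8 alone 0 of the 7 were called by edgeR, with 3 at an unadjusted p under 0.05. The hour at which the rats were killed is not in the sources used here.

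Insulin and nutrient signalling had 1 call, higher, among 6 identifiers, a share not above the 23.5% of all genes with a symbol. Rheb, the GTPase that switches on mTORC1, rose from 28.2, 22.9 and 25.9 CPM to 53.2, 64.1 and 61.8 CPM (log2 fold change 1.21 ± 0.17 SE, adjusted p = 0.000191), and it was not called with the covariate (log2 fold change 0.96, adjusted p = 0.0725 by edgeR) or with pool 8 alone (adjusted p = 0.115 by edgeR). Pik3r1, the regulatory subunit of PI3 kinase, was not called, with log2 fold change 0.37 ± 0.15 SE, adjusted p = 0.170. Among 8 heat shock identifiers Cryab, a small chaperone of glia, rose from 31.6, 42.6 and 49.1 CPM to 80.3, 71.6 and 79.8 CPM (log2 fold change 0.91 ± 0.17 SE, adjusted p = 0.00306), while the co-chaperone Stip1 fell from 203, 211 and 276 CPM to 138, 131 and 145 CPM (log2 fold change -0.74 ± 0.16 SE, adjusted p = 0.00673) and Hspa4l fell by 0.62 on the log2 scale. Hspa4l lost the call with the covariate (adjusted p = 0.135, edgeR), and with pool 8 alone 0 of the 8 were called by edgeR, with 4 at an unadjusted p under 0.05. Of 3 glucocorticoid-responsive identifiers 1 was called, Mt2A, given above.

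Chromatin genes were lower more often than higher where called. Of 21 identifiers of methylation enzymes and other chromatin proteins 4 were called lower and 1 higher, with a median log2 fold change of -0.47. Among all genes with a symbol 15.2% were called lower and 23.5% higher. The count of lower members was near that share here and among the acetyltransferases below, so it is not particular to these lists. H2afy, the macroH2A histone variant of silent chromatin, stood at 92.03, 70.2 and 115 CPM in the AL pools and 47.3, 46.1 and 46.98 CPM in the AL+LA>CR pools (log2 fold change -0.98 ± 0.17 SE, adjusted p = 0.00169). Kdm4b, a histone demethylase, fell from 57.1, 63.5 and 45.1 CPM to 38.5, 32.5 and 37.7 CPM (log2 fold change -0.61 ± 0.17 SE, adjusted p = 0.0434). Usp3, a histone deubiquitinase, and the remodeller Chd7 had log2 fold changes of -1.09 and -0.94, whereas Rtf1, a subunit of the Paf1 elongation complex, rose from 48.2, 44.1 and 47.7 CPM to 64.3, 78.6 and 73.1 CPM (log2 fold change 0.62 ± 0.16 SE, adjusted p = 0.0211). Chd7 overlapped between the groups. Of 10 acetyltransferase identifiers 2 were lower, the MYST enzyme Kat6a from 63.3, 54.2 and 79.6 CPM to 36.7, 46.5 and 45.8 CPM and its partner Brd1 from 68.4, 75.1 and 75 CPM to 42.3, 48.4 and 58.6 CPM, with log2 fold changes of -0.62 and -0.56, and 1 was higher, the NuA4 subunit Meaf6, at 0.87. Hdac5, a class IIa deacetylase that shuttles out of the nucleus on calcium signals, was 1 of 2 deacetylase identifiers and fell from 25.5, 36.3 and 38.9 CPM to 20.8, 16.6 and 23.2 CPM (log2 fold change -0.73 ± 0.21 SE, adjusted p = 0.0399). Morf4l1, which binds methylated histone H3 for acetyltransferase and deacetylase complexes, was not called, with log2 fold change 0.40 ± 0.16 SE, adjusted p = 0.170. Apart from H2afy, which was called in all 6 fits with 1 pool left out, the chromatin genes named here as called had adjusted p above 0.02. Kat6a, Brd1, Hdac5, Kdm4b and Usp3 were each called in 1 of the 6 fits with 1 pool left out. Hdac5 stayed called with the covariate but not with pool 8 alone (adjusted p = 0.144, edgeR). With the covariate Usp3, Chd7, Kat6a, Brd1 and Meaf6 lost the call (adjusted p of 0.439, 0.939, 0.148, 0.0818 and 0.142 by edgeR). Of the 21 identifiers 6 were called lower and 2 higher with the covariate, and 1 and 1 with pool 8 alone.

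Fewer cells of a type and less RNA per cell cannot be told apart in these bulk samples, so the markers of cell types are given as levels. Markers of cortical excitatory neurons, which fit the labelled tissue, were present in all 6 pools and 3 of 3 identifiers were called higher, Neurod6 from 39.8, 31.9 and 30.1 CPM to 53.04, 55.4 and 66.7 CPM, Nrgn from 64.7, 97.2 and 66.4 CPM to 106, 132 and 162 CPM and Fezf2 from 5.71, 8.70 and 5.09 CPM to 13.4, 14.7 and 12.5 CPM. Their summed level was 102 to 138 CPM in AL and 173 to 241 CPM in AL+LA>CR. In both checks 0 of the 3 were called by edgeR, with 2 at an unadjusted p under 0.05 with the covariate and 1 with pool 8 alone. With the covariate the adjusted p was 0.27 for Neurod6, 0.142 for Nrgn and 0.671 for Fezf2 by edgeR, and Nrgn and Fezf2 were each called in 2 of the 6 fits with 1 pool left out. Of 6 inhibitory neuron identifiers 2 were higher, the neuropeptides Npy from 7.75, 8.70 and 12.7 CPM to 23.1, 29.5 and 20.9 CPM and Sst from 39.8, 64.4 and 40.05 CPM to 82.96, 87.5 and 109 CPM. Of the 6, 4 were above 0 and the lowest log2 fold change was -0.62. The inhibitory list summed to 542 to 708 CPM in AL and 503 to 602 CPM in AL+LA>CR, so the sums of the groups overlapped. Of 3 oligodendrocyte identifiers 2 were higher, the myelin proteins Opalin from 101, 125 and 97.2 CPM to 251, 201 and 137 CPM and Mog from 89.6, 100.1 and 90.3 CPM to 178, 145 and 126 CPM, and their list summed to 313 to 389 CPM in AL and 439 to 658 CPM in AL+LA>CR, with Opalin not called with the covariate (adjusted p = 0.211, edgeR). Astrocyte markers did not move together, since Gfap rose while Gjb6, the gap junction protein connexin 30, fell from 101, 97.7 and 98.6 CPM to 65.8, 63.1 and 58 CPM (log2 fold change -0.67 ± 0.15 SE, adjusted p = 0.00995).

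Of 9 vessel markers 1 was tested under a symbol, and of 6 blood markers 2 were, and these were called higher. Slc2a1, the glucose transporter of the blood-brain barrier, rose from 47.5, 58.9 and 37.97 CPM to 124, 108 and 106 CPM (log2 fold change 1.24 ± 0.17 SE, adjusted p = 0.000186). The haemoglobin genes Hba2 and Hba-a2, which share near-identical copies, rose from 19.4, 27.3 and 27.1 CPM to 67.2, 84.3 and 53.4 CPM and from 57.7, 52.2 and 77.1 CPM to 137, 149 and 141 CPM, and summed to 77.1 to 104 CPM in AL and 195 to 233 CPM in AL+LA>CR. Of 3 meningeal identifiers 1 was called. This was Ptgds, the prostaglandin D synthase of meninges and oligodendrocytes, which rose from 214, 239 and 169.9 CPM to 393, 411 and 558 CPM (log2 fold change 1.13 ± 0.17 SE, adjusted p = 0.000371). The choroid plexus had 1 marker, Aqp1, which was not called, at 5.71, 8.99 and 6.02 CPM in the AL pools and 3.23, 9.98 and 7.83 CPM in the AL+LA>CR pools. Of 4 thalamic identifiers 3 were lower, Slc17a6, the vesicular glutamate transporter of subcortical neurons, at 54.9, 79.2 and 75 CPM in the AL pools and 50.5, 22.1 and 25.5 CPM in the AL+LA>CR pools, Rora at 42.9, 35.7 and 61.8 CPM in the AL pools and 29.4, 22.3 and 26.4 CPM in the AL+LA>CR pools and Tcf7l2 at 19.6, 29.9 and 30.8 CPM in the AL pools and 20.1, 11.7 and 6.67 CPM in the AL+LA>CR pools. The sum of the thalamic list was 141 to 235 CPM in AL and 78.6 to 171 CPM in AL+LA>CR. With the covariate Slc17a6, Rora and Tcf7l2 lost the call (adjusted p of 0.512, 0.16 and 0.32 by edgeR). Of 2 striatal identifiers Pde10a fell from 48.2, 111 and 93.5 CPM to 39.1, 36.1 and 60.3 CPM (log2 fold change -0.90 ± 0.24 SE, adjusted p = 0.0284), with overlapping groups and no call with the covariate (adjusted p = 0.0884, edgeR). With pool 8 alone, Gfap and Slc2a1 were the only genes of these cell type lists called. Some of these marker levels differed between the groups, while others overlapped or varied between pools of 1 group. Their part in the gene lists above was not tested.

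Against the other diets of 28 months, each in a fit of its own, AL+LA>CR differed by few genes. From AL>CR 1 of 17230 genes was called (0.0058% of the genes tested), with 556 at an unadjusted p under 0.05. From CR 0 genes were called by edgeR's quasi-likelihood test (0% of the genes tested), with 577 at an unadjusted p under 0.05, 0 calls by DESeq2 and 2 by edgeR's exact test. From AL+LA 0 were called (0%), with 756 at an unadjusted p under 0.05, 6 calls by DESeq2 and 6 by the exact test. Genes at an unadjusted p under 0.05 were 3.23%, 3.35% and 4.39% of those tested in these comparisons. This does not show that the diets act alike, since differences within the spread of 3 pools a group are not detectable here.

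The gene that differed from AL>CR was Alb, which encodes serum albumin and is made chiefly in liver. It had 22, 15 and 15 reads in the AL pools and 269, 75 and 218 in the AL+LA>CR pools, that is 4.49, 4.35 and 3.47 CPM in the AL pools and 48.2, 15.9 and 63.2 CPM in the AL+LA>CR pools. The log2 fold change over AL was 3.35 ± 0.37 SE, adjusted p = 1.63e-05, and over AL>CR it was 2.47 ± 0.34 SE, adjusted p = 0.00364. In the other groups it stood at 7.76 ± 2.38 CPM in AL>CR, 14.1 ± 1.23 CPM in CR and 54.7 ± 65.4 CPM in AL+LA, and the log2 fold change of AL+LA>CR over AL+LA was -0.36 ± 0.52 SE, adjusted p = 0.991. Against CR it was 1.57 ± 0.31 SE, adjusted p = 0.426. Over AL, Alb was also called with the covariate (adjusted p = 0.0177, edgeR) but not with pool 8 alone (log2 fold change 3.26, adjusted p = 0.385 by edgeR). The haemoglobin gene Hba2 had a log2 fold change of 1.49 ± 0.19 SE over AL, -0.24 ± 0.15 SE over AL>CR and -0.64 ± 0.15 SE over AL+LA, and the part of blood in the Alb values was not tested. Pool 23 had the least Alb of the AL+LA>CR pools and was still above each AL and AL>CR pool.

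Cd74 had the smallest p in the other 2 comparisons. It was 58.3 ± 12.3 CPM in AL>CR, 83.7 ± 8.69 CPM in CR and 88.6 ± 12.8 CPM in AL+LA, against 38.9 to 54.4 CPM in the AL+LA>CR pools. The log2 fold change of AL+LA>CR was -0.78 ± 0.15 SE, adjusted p = 0.426 over CR and -0.86 ± 0.15 SE, adjusted p = 0.0798 over AL+LA, so neither was called. The same gene was above AL by 0.67 on the log2 scale, also without a call. Over AL>CR it was -0.27 ± 0.16 SE, adjusted p = 1.

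Among the genes that stood out against AL, the levels in the other diets lay at different distances from AL+LA>CR. Ndufa3 was 33.3 ± 4.41 CPM in AL>CR, 37.98 ± 7.85 CPM in CR and 31.7 ± 6.56 CPM in AL+LA, with a log2 fold change of AL+LA>CR over AL+LA of 0.47 ± 0.17 SE, adjusted p = 0.991 and over AL>CR of 0.41 ± 0.16 SE, adjusted p = 1. Gstp1 was 56.6 ± 10.5 CPM in AL>CR, 65.2 ± 12.4 CPM in CR and 60.6 ± 7.13 CPM in AL+LA, with 0.27 ± 0.14 SE, adjusted p = 1 over AL>CR. MT1 was 9.31 ± 2.72 CPM in AL>CR, 9.44 ± 3.76 CPM in CR and 12.4 ± 4.80 CPM in AL+LA, with 0.40 ± 0.28 SE, adjusted p = 1 over AL>CR. Dvl1, lower than AL in AL+LA>CR, was 32.1 ± 0.245 CPM in AL>CR, 36.7 ± 3.69 CPM in CR and 35.98 ± 1.58 CPM in AL+LA, with -0.25 ± 0.16 SE, adjusted p = 1 over AL>CR. Bccip was 25.6 ± 4.56 CPM in AL>CR, 26.9 ± 7.95 CPM in CR and 22.7 ± 8.14 CPM in AL+LA, against 15.9 ± 0.942 CPM in AL+LA>CR, whose pools overlapped with none of these groups. Its log2 fold change was -0.67 ± 0.19 SE over AL>CR and -0.75 ± 0.21 SE over CR, with an adjusted p of 1 in both by edgeR. All 4 comparisons share the AL+LA>CR pools, and the levels in AL are shared by every contrast with AL. As a description of the AL pools, 362 of the 519 higher genes (69.7%) had all 3 AL pools below each of the 18 pools of the 6 remaining diets of 28 months, against 3.75% of all genes tested. For the lower genes all 3 AL pools were above those 18 pools in 123 of 314 (39.2%), against 2.46% of all genes. The called genes were chosen by these same 3 AL pools, so shares above those of all genes are in part set by that choice. The mean of AL+LA>CR lay within the range of the 18 pools for 96.1% of the higher and 96.8% of the lower genes, and for 98.4% of all genes. Among those 18 pools are diets with unlimited food at 28 months, CR>AL, CR>AL+LA and AL+LA.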

How the data were processed

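RNA from the cortex of 2 rats per pool was depleted of ribosomal RNA and sequenced on a SOLiD instrument. The authors mapped the reads with Bowtie to rn5 without multiply mapping reads and counted them per Ensembl gene with HTSeq. The deposited values are raw counts with no normalization, and the last 5 lines of each file, which name no gene, were left out of library sizes and tests. Across the 6 libraries, 27.5% to 40.4% of reads were not aligned. Strand and library date are not given in the sources used here, so overlapping and antisense genes are uncertain.

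Genes reaching 1 CPM in 3 or more of the 39 libraries entered the tests, and library sizes were scaled by TMM over all libraries. Each comparison was fitted on its own 6 libraries with edgeR 4.0.16 (R 4.3.3, quasi-likelihood test), p-values were adjusted over 17230 genes by Benjamini-Hochberg, and the call threshold was an adjusted p of 0.05. A standard error is the size of the log2 fold change divided by the square root of F. Pools of a group differed by more than sampling noise (chi-square per degree of freedom 9.9 to 44.6). The fit was tested on simulated data. The pools were checked to be separate libraries, but p-values measure only the spread between pools.

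Symbols come from the study's supplementary tables, which name 1669 identifiers, called in at least 1 of its comparisons; RefSeq rows carried no Ensembl identifier. Promoter windows of GRCr8 were found for 1159 of 1634 symbols. None of the lipoic acid and lipoylated enzyme genes had a symbol. The members and gene lists were chosen with earlier results of these data known. The genes named are, per direction, the 10 smallest adjusted p among called genes with a symbol and separate pools (cerebellar markers aside), up to 4 per direction of each list or else its smallest p, genes the study names, and Rn28s. Of the genes this rule names, 5 are not reported here. Cd74, Mt3 and Gabra6 were chosen after their values were seen. Results were refitted with DESeq2 1.42.0, with edgeR's exact test, with other scalings and filters, with all 13 groups in one fit, with and without the cerebellar marker covariate, with AL pool 8 alone, and without each pool or Rn28s. Positions, lengths and enrichments were not analysed here.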

Additional observations from a re-analysis of the deposited data

Results flagged for a closer look

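Alb differed between AL>CR and AL+LA>CR at 28 months, which share the switch to restriction at 12 months and differ by the earlier lipoic acid. The log2 fold change from AL>CR to AL+LA>CR was 2.47 ± 0.34 SE (adjusted p = 0.00364, edgeR's quasi-likelihood test over 17230 genes), and the 3 AL+LA>CR pools were above the 3 AL>CR pools. The pools stood at 8.61, 5.07 and 9.59 CPM in AL>CR and at 48.2, 15.9 and 63.2 CPM in AL+LA>CR. It was the only gene called in that comparison, and it was not called there by DESeq2 or in the fits of all 13 groups.

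The share of reads not aligned, which enters no gene value, was 6.1 percentage points higher in AL+LA>CR than in AL, and the lowest AL+LA>CR pool, at 34.1%, was above the highest AL pool, at 33.2% (exact permutation test, two-sided p = 0.1, the smallest that 3 pools against 3 allow).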

How the results depend on the processing

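No paired analysis was possible because each pool has a number of its own. The count of 833 genes became 209 with AL pools 7 and 9 left out (129 higher, 80 lower), which leaves 1 AL pool, and 1261 with no filter on low counts (778 and 483). It stayed within 1.5 times with the exact test (1023), DESeq2 (776), other scalings, at least 10 counts per library, Rn28s left out, and all 13 groups in one fit (1126) or with the covariate (699). Leaving out 1 pool gave 362 to 1063 calls: 362 without AL pool 9, 364 without AL+LA>CR pool 23, 498 without pool 24 and 1063 without AL pool 8. The higher share of calls fell between 55.7% and 76.1% there, against 62.3%. From AL>CR to AL+LA>CR the 1 call became 0 with DESeq2 and in both fits of all 13 groups, 2 with the exact test, 23 with no filter, and 1 to 6 with 1 pool left out. From CR the 0 calls became 2 with the exact test, 33 with no filter, and 0 to 1 with 1 pool left out. From AL+LA they became 6 with DESeq2, 6 with the exact test, 25 with no filter, and 0 to 1 with 1 pool left out. Of 120 named genes 110 were called, 60 of them in all 6 fits with 1 pool left out, and 65 of the 120 were called with the covariate and 31 with AL pool 8 alone. Signs of the log2 fold change reversed for Gabra6 (4.93), Car8 (0.13), Gria4 (0.029) and Aqp1 (-0.39) with pool 8 alone, for Gabra6 (1.64) with the covariate, and for Aqp1 with 1 pool left out (-0.37 to 0.39). Gabra6 and Car8 are among the cerebellar markers on which both checks were built. The cause of these changes was not tested.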
